A study of Homo sapiens with 3 samples.

Results

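In ribosome profiling, mRNA is digested with nuclease and the fragments shielded by ribosomes (ribosome-protected fragments, RPFs) are sequenced, so that reads on a region count the ribosomes that occupied it. The method was used here on ATG12 and other genes of the autophagy conjugation machinery in HEK293T cells treated with the aminoglycoside G418. The questions were how these genes were translated and how dense ribosomes were past their stop codons. HEK293T cells are derived from human embryonic kidney and express the large T antigen of SV40. The data comprised 3 libraries: Untreated A and Untreated B, from cells that received no drug, and G418 A, from cells treated for 24 hours with 500 µg/mL G418, a drug that targets the decoding centre of the ribosome and makes it misread codons. G418 thus had 1 library and no replicate check, and each untreated mean below has n = 2. The members were 10 genes taken by name (ATG12, ATG3, ATG5, ATG7, ATG101, GABARAP, GABARAPL2, MAP1LC3B, SQSTM1 and ULK1). Of these, 8 were analysed among the 8812 transcripts listed in all 3 libraries, and ATG3 and GABARAP were not analysed here. ATG12 was chosen by its readthrough in G418 A, and the others were chosen with results of these libraries known, so their values under G418 are given as a description, with no test.

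The libraries held 5857230, 9477972 and 7216039 reads assigned to transcripts in Untreated A, Untreated B and G418 A, respectively. Markers of HEK293 cells were detected in all 3 libraries for 4 of 5 genes (NEFM, NEFL, INA and LHX1). Of 5 markers of other cell types, 1 (the collagen gene COL1A1) was listed in all 3 libraries, at 7.98, 10.7 and 8.61 RPKM in the order given above.

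Macroautophagy encloses cargo in a double membrane that fuses with the lysosome, and its machinery includes a pair of ubiquitin-like conjugation systems. ATG7, an E1-like activating enzyme, activates ATG12 through its C-terminal glycine, and ATG12 is then joined to ATG5. The resulting complex promotes the attachment of ATG8-family proteins (the LC3 and GABARAP proteins) to phosphatidylethanolamine by the E2-like enzyme ATG3. ATG8 proteins are made with residues after the reactive glycine, which ATG4 proteases remove, whereas ATG12 ends in glycine as it is made. ULK1 is the kinase that starts the process together with ATG101 and others, and SQSTM1 (p62) is a receptor that links ubiquitinated cargo to LC3. If a ribosome decodes the normal termination codon (NTC) as an amino acid, it adds residues behind these C-termini until it meets a further in-frame stop in the 3′UTR (3′TC).

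The sequences at the stop codons are shown because the stop codon and the nucleotide after it form the 4-nt signal by which the genes are compared below. Each line gives 15 nt before the stop codon, the stop codon in capitals and 12 nt after it, on the coding strand of hg38, in the order of the genes' roles. GABARAPL1 and MAP1LC3A, which are not among the 10 genes, are added as ATG8-family relatives with the same stop signal as GABARAPL2.

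ATG12: tctcaggcgtggggaTGAaccacaaagaaa
ATG5: attgatcctgaagacTAAgactctcgcact
ATG7: gatgatgagaccatcTGAgatggccccgct
GABARAPL2: aacacttttggcttcTGAgggccattgctg
GABARAPL1: agtgtctatgggaaaTGAgtggttggaagc
MAP1LC3A: gaaaccttcggcttcTGAgccagcagcccc
MAP1LC3B: atgaaattgtcagtgTAAaaccagaaaaaa
ATG101: gacacccttgccctcTGAgcgtcgctggat
ULK1: actggcatctgtgccTGAcctttctggcct
SQSTM1: tgtgttaagcttgcgTAGaattgcaggtct

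A glycine codon stood directly before the stop codon in ATG12 and was the codon before last in GABARAPL2, GABARAPL1 and MAP1LC3A. In MAP1LC3B the nearest glycine codon was 6 codons before the stop. The ATG12 stop codon lies at chr5:115831804-115831806 on the minus strand, in exon 4 of 4 of ENST00000509910.2. Those of GABARAPL2 (chr16:75577367-75577369), MAP1LC3B (chr16:87403095-87403097), ATG7 (chr3:11554841-11554843), ATG101 (chr12:52077188-52077190) and ULK1 (chr12:131921359-131921361) are on the plus strand, each in the last exon of its transcript. These 6 stop codons are also those of the MANE Select transcript, the reference isoform of each gene. The listed transcripts of ATG5 and SQSTM1 end elsewhere. The ATG5 transcript ends at chr6:106046821-106046823 and the MANE Select transcript at chr6:106186540-106186542. For SQSTM1 these positions are chr5:179836655-179836657 and chr5:179836591-179836593. The counted CDS of ATG5 and SQSTM1 was shared with the MANE Select CDS over 100% and 95.3% of its length, so their CDS densities come largely from reads that the reference isoform can also give, while their readthrough values refer to a stop codon of another isoform. Among all transcripts of the set used for readthrough, 394 ended at a stop codon other than the MANE Select one, and 60.4% of them had no readthrough read in G418 A, against 21.4% of the 5167 transcripts at the MANE Select stop.

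Readthrough is given as the ribosome readthrough score (RRTS), the density of RPFs between the NTC and the 3′TC divided by that of the CDS, in percent. This region starts 6 nt past the NTC and includes the 3′TC. A score of 100% means that the region held as many reads per nucleotide as the CDS. The score is a ratio of densities and not the frequency of readthrough, and it can exceed 100%. The paper reports that ribosomes were enriched at the 3′TC under G418, and the 3′TC is counted here, whereas both ends of the CDS are left out. How many reads lay at the 3′TC was not tested, and the 3′TC makes up a larger part of short regions. Values in parentheses are exact 95% Poisson intervals of the reads in the region, which cover counting error only. The comparison with all transcripts used the 5684 of the 8812 transcripts that had the most CDS reads on average over the libraries, with at least 18 nt from the NTC to the end of the 3′TC. All 8 genes belonged to this set, and the least covered of them, ATG101, had a mean of 144 CDS reads.

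ATG12, the ubiquitin-like protein of the system, gave the most readthrough reads of the 8 genes. The 66-nt region held 1 read in Untreated A and none in Untreated B. In G418 A it held 89, where 35.2 were expected at the density of the CDS. This gave an RRTS of 3.16% (0.0800% to 17.6%) for Untreated A and 0% for Untreated B. Under G418 it was 253% (203% to 311%). A count of 0 in Untreated B allows an RRTS of up to 7.09%. Ribosome density past the ATG12 stop codon therefore exceeded that on its own CDS under G418 and was close to 0 in both untreated libraries. From the reading frame, the product of readthrough would carry 24 residues behind the C-terminal glycine, and no protein was measured here.

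Among the 341 transcripts with at least 50 readthrough reads in G418 A, ATG12 had the highest RRTS. ATG12 was chosen by this same readthrough, and the minimum was set on the same reads, so its rank is a description and no support. The next below it were MRPL53, a mitochondrial ribosomal protein gene, at 228%, and EMC6, which encodes a subunit of a membrane protein insertase, at 222%. Without a minimum number of readthrough reads, 42 of 5684 transcripts scored higher than ATG12, and 9 of the 788 that shared its UGAA signal did so. By the summed difference of log2(RRTS + 0.001) over the 3 libraries, the transcripts most like ATG12 were IER3IP1, SMAD4, MTPN, EMC6 and ANAPC16. Their RRTS in G418 A was 115%, 141%, 112%, 222% and 99.8%. Each had 0 reads in Untreated B, which follows from the measure, since ATG12 had none there.

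Part of the ATG12 CDS has a second copy in the genome. Of the 28-nt windows of the counted CDS, 47.9% also occur exactly at chr17:73067882-73068267, the processed pseudogene ATG12P1, against 10.3% of the windows over the readthrough region. Reads from such windows could have been credited to either place, and a loss of such reads from the CDS would raise the RRTS. With the CDS density raised as if every shared window had lost all its reads, the RRTS of ATG12 in G418 A was 132%. That value is below those of MRPL53 (228%), EMC6 (222%) and SMAD4 (141%), so the first rank of ATG12 would not hold there. The share of reads actually lost was not tested.

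Readthrough in G418 A varied among the other conjugation genes, and of these ATG7 and ATG5 had no read. ATG7, with a UGAG signal and a 273-nt region, had 0, 1 and 0 readthrough reads in Untreated A, Untreated B and G418 A, where 23.6 reads were expected at CDS density in G418 A. The count of 0 allows an RRTS of up to 12.7% under G418. ATG5, with UAAG at its non-reference stop, had 0 reads in each library over 255 nt, which allows up to 2.36% in G418 A. ATG5 also had no read in the rest of its listed 3′UTR in any library. The conjugation genes outside the 10 had few reads. ATG16L1, which binds the ATG12 and ATG5 conjugate, had 0, 1 and 5 readthrough reads (44.4%, 14.4% to 104%, in G418 A). The proteases ATG4B and ATG4C had 0 reads in both untreated libraries and 6 and 2 in G418 A, an RRTS of 61.5% (22.6% to 134%) and 31.8% (3.85% to 115%). Each of these 3 G418 intervals overlapped an untreated one.

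The ATG8-family genes differed from each other. GABARAPL2, a GABARAP-subfamily protein, has UGAG and the shortest counted region, 12 nt, which held 0, 7 and 25 reads. The untreated RRTS was 0% (A) and 10.4% (B, 4.17% to 21.4%), and that under G418 was 60.2% (39.0% to 88.9%). The G418 interval lay above both untreated ones. MAP1LC3B, which encodes LC3B, has UAAA and had 0, 0 and 1 reads in 30 nt, an RRTS of 1.95% (0.0493% to 10.9%) in G418 A. This overlapped the untreated intervals, of which the upper bounds were 7.58% and 4.44%. MAP1LC3B has near-identical relatives, and 88.4% of the 28-nt windows of its counted CDS occur elsewhere in the genome, against 0% for the readthrough region, so its CDS values are uncertain. With its CDS density raised as if every shared window had lost all its reads, the RRTS in G418 A was 0.227%, which also rests on the 1 read. The share of reads actually lost or gained was not tested.

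Of the initiation genes, ATG101, a subunit that stabilises the ULK1 complex, has UGAG and a 168-nt region with 0, 0 and 20 reads. Its RRTS in G418 A was 42.2% (25.8% to 65.2%), and the zero counts allow up to 9.69% and 7.90% in Untreated A and B. ULK1 has UGAC, the signal with the highest pooled RRTS in G418 A of all 12, but few reads. Its region held 0, 6 and 5 reads. The count of 0 allows up to 72.8% in Untreated A, and the RRTS was 65.3% (24.0% to 142%) for Untreated B and 74.2% (24.1% to 173%) for G418 A. Untreated B and G418 A thus gave nearly the same score for ULK1, and no difference was detectable at this depth. For SQSTM1, with UAGA at its non-reference stop, 0, 0 and 1 reads were found, an RRTS of 2.61% (0.0662% to 14.6%) in G418 A.

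**Figure D1:**
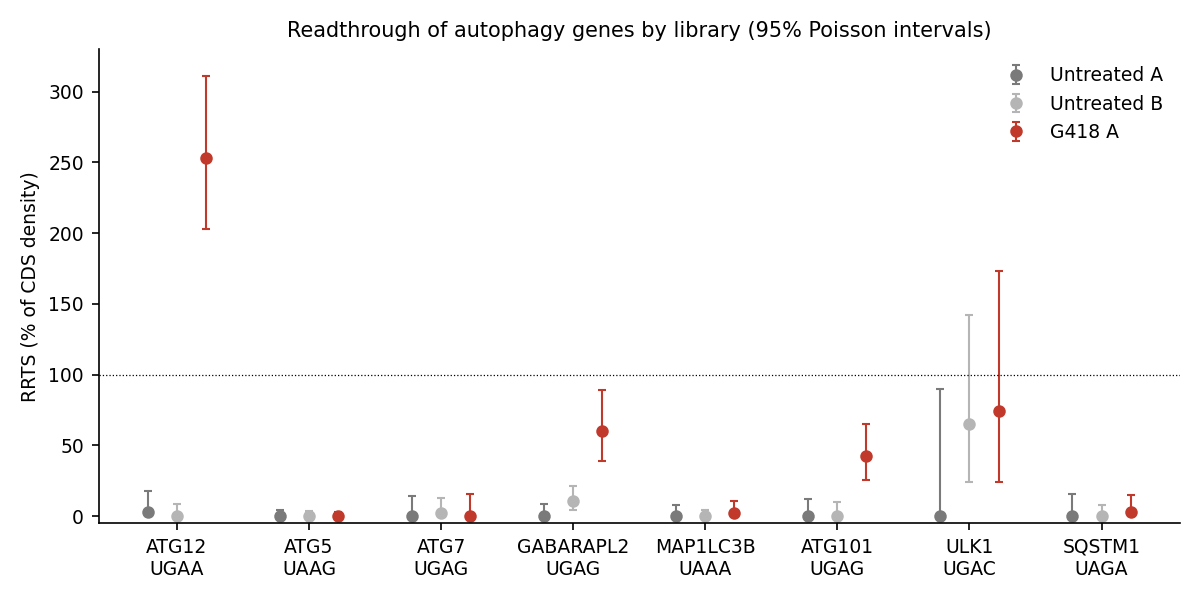
RRTS in percent of the CDS density (vertical axis) for each of the 8 genes, with its 4-nt stop signal, in Untreated A, Untreated B and G418 A; points are scores, bars are exact 95% Poisson intervals of the readthrough reads and the dotted line marks equal density in region and CDS. ATG12 in G418 A stands at 253%, GABARAPL2 and ATG101 lie above both untreated intervals, and the ULK1 intervals overlap.

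In order of their RRTS in G418 A the genes were ATG12, ULK1, GABARAPL2, ATG101, SQSTM1, MAP1LC3B and, with no readthrough read, ATG5 and ATG7. The lower bound of ATG12 lay above the upper bound of every other gene when no allowance was made for shared windows. With its CDS density raised for shared windows, ATG12 scored 132%, below the upper bound of ULK1 (173%). ULK1, GABARAPL2 and ATG101 had overlapping intervals and could not be ordered, and the same held for SQSTM1, MAP1LC3B, ATG5 and ATG7. At least 1 readthrough read in G418 A was found for 6 of 8 genes, against 75.8% of all transcripts of the set. The G418 interval lay above both untreated intervals for 3 of 8 genes (ATG12, GABARAPL2 and ATG101), against 25.8% of all transcripts. The median RRTS of the 8 genes in G418 A was 22.4%, and that of all 5684 transcripts was 18.4%. Pooled over the 8 genes, the regions held 1, 14 and 141 reads, for a pooled RRTS of 0.341%, 3.20% and 38.0%. The untreated mean was 1.77% ± 2.02 (SD, n = 2), and G418 A was 21.4 times that mean. With so few untreated reads the ratio was 11.9 without Untreated A and 111 without Untreated B. The pooled ratio for all transcripts was 15.2. Without ATG12 the pooled ratio of the other genes was 8.72, with 0, 14 and 52 reads. The pool includes ATG5 and SQSTM1 at their non-reference stops. For the 6 genes at the MANE Select stop the pooled RRTS was 0.543%, 4.95% and 68.0%, a ratio of 24.8 over the untreated mean.

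Each gene was next set beside the transcripts that share its 4-nt stop signal. ATG12 exceeded 98.7% of the 788 UGAA transcripts, of which the median was 29.8% and the pooled RRTS 32.8% in G418 A. At that pooled rate its region would have held 11.6 reads, against the 89 found. With its CDS density raised for shared windows, ATG12 scored 132%, below the 95th percentile of the UGAA class (148%). GABARAPL2 and ATG101 exceeded 86.0% and 76.2% of the 1054 UGAG transcripts, with a median of 19.9%. ATG7 carries the same UGAG signal and had no read where the pooled rate of the class would give 5.39, and 20.3% of the UGAG transcripts also had none. That share covers regions of all lengths and read depths, so it is not the share at the coverage of ATG7. ULK1 exceeded 74.3% of the 561 UGAC transcripts, of which the median was 38.7%. The 3 genes with UAA or UAG codons had at most 1 read. At the pooled rates of their classes, 10.9 reads would be given for ATG5, 5.62 for MAP1LC3B and 7.80 for SQSTM1. ATG5 and SQSTM1 end at non-reference stops, where 60.4% of transcripts had no readthrough read, against 21.4% at the MANE Select stop. The number for MAP1LC3B rests on its uncertain CDS reads. Low readthrough of these 3 stop codons therefore cannot be told apart from these limits.

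**Figure D2:**
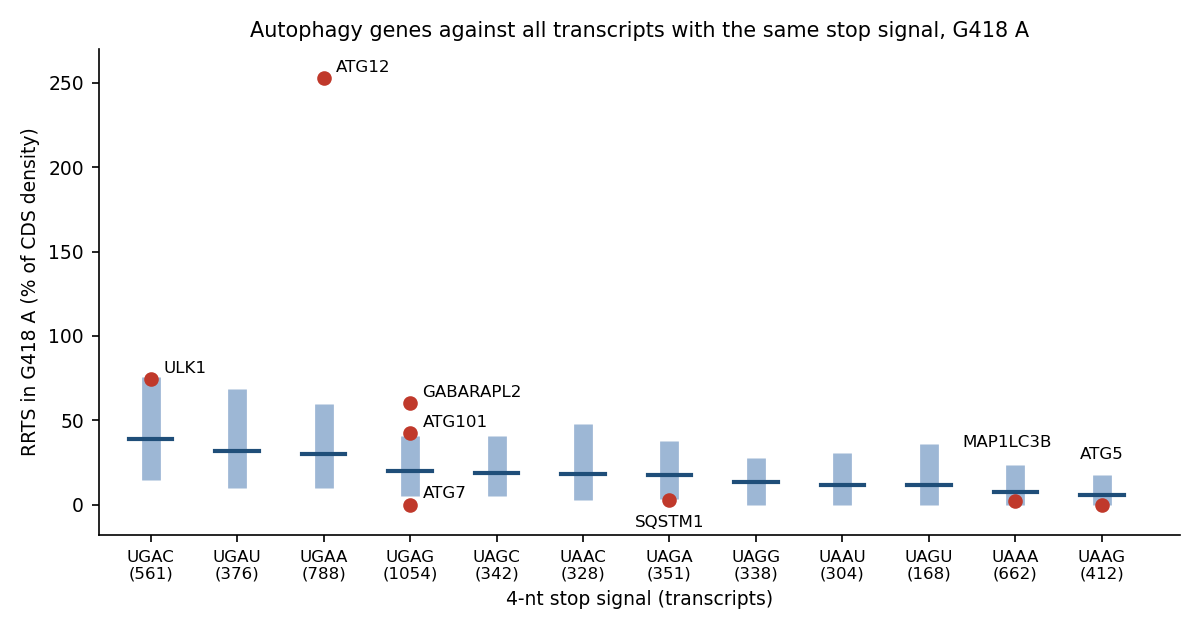
RRTS in G418 A, in percent of CDS density, of the 8 genes (points) over all transcripts with the same 4-nt stop signal (bars span the first to the third quartile, lines are medians, and the number of transcripts is in parentheses under each signal). ATG12 lies far above the UGAA quartiles, while ATG7, ATG5, MAP1LC3B and SQSTM1 lie below the medians of their classes.

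GABARAPL2 shares UGAG with its relatives GABARAPL1 and MAP1LC3A, and the scores of the 3 genes differed. GABARAPL1 had 0, 0 and 24 reads in 39 nt, an RRTS of 112% (71.5% to 166%) in G418 A, and its interval overlapped that of GABARAPL2. Copies of the GABARAPL1 and MAP1LC3A CDS elsewhere in the genome were not searched for, so their scores carry no allowance for shared windows. MAP1LC3A had no read in any library, where 26.6 would be expected in G418 A at CDS density, and this allows up to 11.3%. The listed MAP1LC3A transcript is not the MANE Select one but shares its stop codon, which lies in exon 4 of 5. Its 75-nt region spans chr20:34559905-34560245 and so crosses an exon junction. Readthrough on isoforms spliced otherwise past the stop codon may not be counted there in full, which was not tested. The intervals of GABARAPL1 and GABARAPL2 did not overlap that of MAP1LC3A, of which the upper bound was 13.9%. All 3 carry the same codon order of glycine followed by 1 further codon and the stop, so the residues added by readthrough (15 for GABARAPL1, 6 for GABARAPL2 and 27 for MAP1LC3A) would follow the position at which ATG4 cuts.

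Reads past the 3′TC show how far ribosomes were found in the 3′UTR. Beside the 89 reads in its readthrough region, ATG12 had 39 reads further on in G418 A, whereas the whole 3′UTR held 1 and 3 reads in Untreated A and B. Of its 3′UTR reads under G418, 69.5% (exact binomial interval 60.8% to 77.4%) lay before the end of the 3′TC, in 1.83% of the 3′UTR length. This gave 1348 reads per kb in the readthrough region and 11.0 reads per kb after it. For all transcripts together the corresponding share of reads was 66.3% in 5.32% of the length.

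GABARAPL2 had 62 3′UTR reads in G418 A, against 1 and 7 in the untreated libraries. A share of 40.3% (28.1% to 53.6%) lay before the end of the 3′TC, with 2083 reads per kb in its short region and 74.9 reads per kb after it. ATG101 had 23 3′UTR reads, of which 20 lay before the end of the 3′TC, and none in either untreated library. ULK1 had 19 3′UTR reads in G418 A, against 1 and 7, and 14 of the 19 lay past the 3′TC. MAP1LC3B had 17 reads against 4 and 2, of which 16 lay past the 3′TC, and SQSTM1 had 7 against 0 and 0, of which 6 did. These genes therefore had more 3′UTR reads in G418 A than in either untreated library, including those with at most 1 read before the 3′TC. ATG5 and ATG7 had none in G418 A. The share of all transcripts with such a rise was not computed, so the rise is not shown to be particular to these genes. Pooled over all transcripts, the RRTS was 1.57% and 1.25% in Untreated A and B and 21.3% in G418 A.

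**Figure D3:**
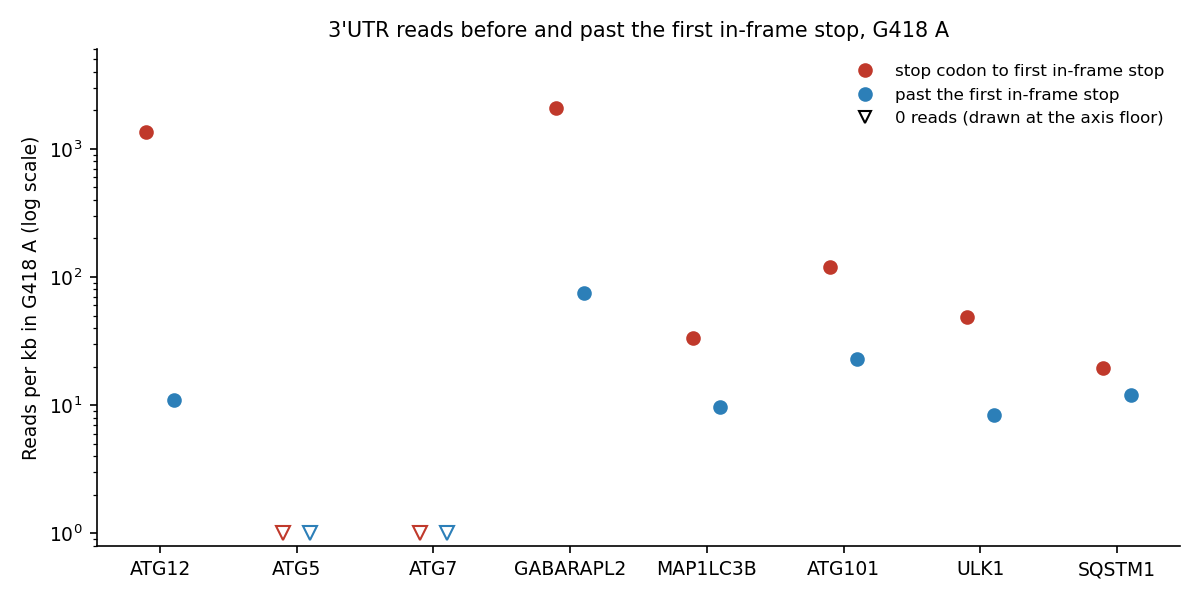
Reads per kb of 3′UTR in G418 A (log axis) for each gene, from the stop codon to the end of the first in-frame stop (red) and past it (blue); open triangles stand for 0 reads. ATG12 falls from 1348 to 11.0 reads per kb and GABARAPL2 from 2083 to 74.9, while the values for SQSTM1 lie close together.

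CDS densities were next compared between the libraries. They are relative to sequencing depth, and no RNA-seq was used here. A change in them therefore cannot be assigned to mRNA level or to translation, and it does not measure protein synthesis. The untreated mean ran from 8.20 RPKM (ULK1) to 602 RPKM (GABARAPL2), and the log2 change of G418 A over that mean ran from −0.45 to 0.50. For ATG12 the CDS density was 81.9 and 67.6 RPKM in the untreated libraries A and B, and 73.9 RPKM under G418, so that G418 A lay between the untreated libraries. Its log2 change over the untreated mean (74.7 ± 10.1 RPKM) was −0.02. ULK1 also lay within its untreated pair, at 6.89 and 9.50 RPKM untreated and 9.15 in G418 A.

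Densities of 3 genes were higher in G418 A than in both untreated libraries. ATG101 had 31.5, 23.8 and 39.1 RPKM in Untreated A, Untreated B and G418 A, a log2 change of 0.50 over the untreated mean. ATG5 had 57.3, 44.02 and 69.1 RPKM (log2 change 0.45), and SQSTM1 had 78.1, 98.9 and 103.9 RPKM (0.23). For these genes the untreated libraries differed from each other by 0.34 to 0.40 on the log2 scale, a spread larger than the gap between G418 A and the nearer untreated library, which was 0.07 to 0.31.

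Densities of 3 genes were lower in G418 A than in both untreated libraries, and here the untreated libraries lay close together. ATG7 had 16.2, 16.5 and 11.998 RPKM, a log2 change of −0.45. GABARAPL2 had 611, 594 and 479 RPKM (log2 change −0.33), and MAP1LC3B had 277, 292 and 237 RPKM (−0.26). The MAP1LC3B densities are uncertain, since 88.4% of the 28-nt windows of its counted CDS occur elsewhere in the genome. For these 3 genes the untreated libraries differed by at most 0.08 on the log2 scale, less than the gap between G418 A and the nearer of them. Of all transcripts, 46.3% lay above and 27.9% below both untreated libraries in G418 A, with no test.

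**Figure D4:**
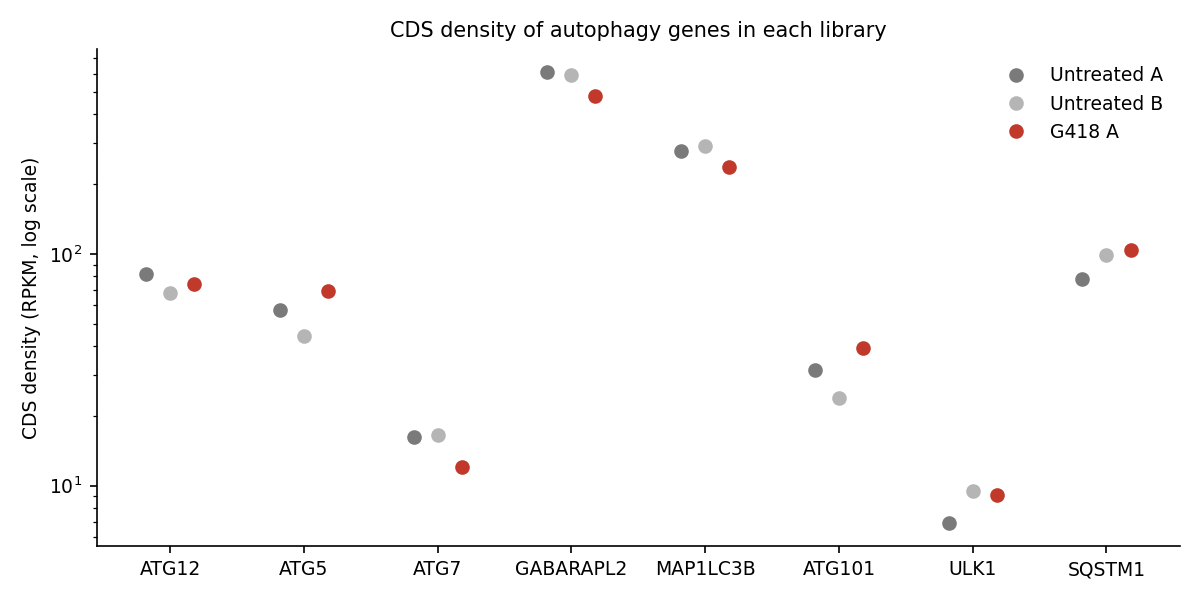
CDS density in RPKM (log axis) of the 8 genes in Untreated A, Untreated B and G418 A, 1 point per library. ATG12 and ULK1 in G418 A lie between the untreated libraries, ATG5, ATG101 and SQSTM1 above both, and ATG7, GABARAPL2 and MAP1LC3B below both. Parts of the ATG12 and MAP1LC3B CDS also occur elsewhere in the genome, so their densities are uncertain.

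In edgeR's quasi-likelihood fit over all 5684 transcripts, 3.04% were called higher and 0.581% lower in G418 at an adjusted p under 0.05 (173 and 33 transcripts). With TMM normalization the numbers were 110 and 41. The 8 genes entered this fit, but their test results are not used, because the contrast was known when they were chosen. The fit has 1 residual degree of freedom and takes the lone G418 library to vary like the untreated pair. The median log2 change was 0.07 for the 8 genes and 0.07 for all transcripts, and 0.00 for all transcripts with TMM.

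The rest of the autophagy pathway was read from a list of 70 genes in 8 roles, which includes the 10 genes above. Of the others, 40 were tested, and edgeR called 2 higher and 0 lower in G418, with 4 at an unadjusted p under 0.05. Over all transcripts in the same fit, 3.04% were called higher and 0.581% lower, and no such share is given here for the unadjusted p. Both called genes are listed under membrane source and lipid transfer, and 2 calls are too few to show a pattern by role. ATG9A, a lipid scramblase of the vesicles that seed autophagosomes, had 26.8 and 27.2 RPKM untreated and 43.7 RPKM in G418 A (edgeR log2 change 0.70, adjusted p = 0.0219). WDR45B, a phosphoinositide-binding WIPI protein, had 29.5 and 32.4 RPKM untreated and 56.2 RPKM in G418 A (0.86, adjusted p = 0.0364). Neither was called by edgeR with TMM normalization (adjusted p = 0.0636 and 0.0663), and DESeq2 gave 0.307 for ATG9A and no adjusted p for WDR45B. In the same role 3 further genes did not pass. No gene was called among the 3 lipid kinase genes, the 11 receptors, the 6 genes of fusion with the lysosome, the 7 upstream regulators, or the 2, 3 and 3 other genes tested from the initiation, conjugation and ATG8 groups. The median log2 change of the 40 genes was −0.06.

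**Figure D5:**
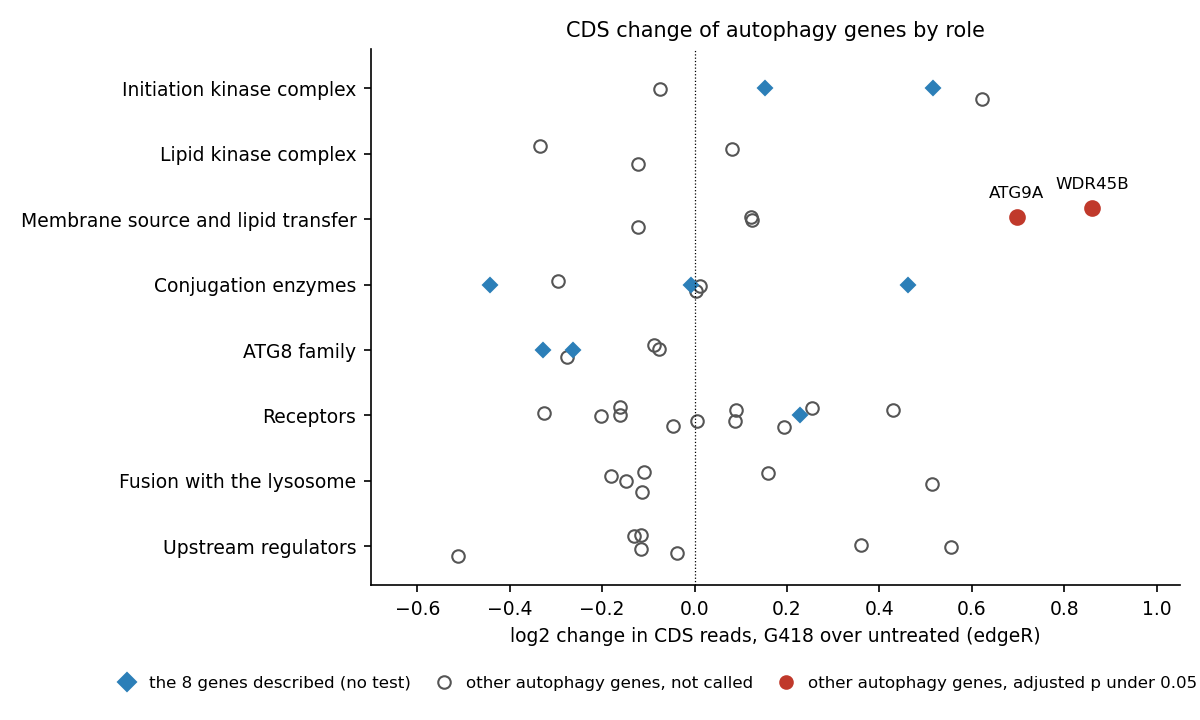
Log2 change in CDS reads, G418 over untreated, from the edgeR fit (horizontal axis) for autophagy genes grouped by role (vertical axis); diamonds are the 8 genes described with no test, open circles other genes that were not called and filled circles those with an adjusted p under 0.05. ATG9A at 0.70 and WDR45B at 0.86 are the filled circles.

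For the 40 other genes the pooled RRTS was 1.81% and 1.37% in Untreated A and B and 24.3% in G418 A, against 1.57%, 1.25% and 21.3% for all transcripts. The G418 interval lay above both untreated intervals for 8 of 40 (20%), against 25.8% of all transcripts, and 11 of 40 (27.5%) had no readthrough read in G418 A, against 24.2% of all transcripts. Both shares were near those of all transcripts. The highest scores in G418 A were those of ULK2, a kinase related to ULK1 (297%), the receptor NBR1 (295%), the ULK1-complex scaffold RB1CC1 (174%), GABARAPL1 (112%) and the receptor CALCOCO2 (102%). Copies of their CDS elsewhere in the genome were not searched for. ULK2, NBR1 and RB1CC1 rested on 5, 13 and 6 reads and their intervals overlapped an untreated one. CALCOCO2 had 1, 4 and 43 reads, and its interval (73.5% to 137%) lay above both untreated ones. Part of the CALCOCO2 region is annotated as CDS of another isoform of the gene (ENST00000507306.1), and reads of that isoform cannot be told apart from readthrough. Of the 11 genes at 0, those with the most reads expected at CDS density were MAP1LC3A, the AMPK subunit gene PRKAA1 (21.0 reads, which allows up to 14.3%) and PIK3R4, a subunit of the lipid kinase complex (14.6 reads, up to 20.6%).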

How the data were processed

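RPFs were measured in 3 libraries, grouped by their treatment label. Per the methods of the study and the submitters' processing notes, the authors collapsed reads sharing a molecular identifier, removed noncoding RNA, and aligned the rest with STAR to hg38, keeping the primary alignment of reads that matched several places. Each gene is represented by a single transcript ending at the 3′-most stop codon. The authors deposited CDS counts, RPM values (reads in proportion to all reads assigned to transcripts), RPKM densities (RPM per kb, with both ends of the CDS left out) and ratios of densities, among them the RRTS. Every RPM value was a whole number of reads, within 0.01, when divided by the value of 1 read, and these recovered reads underlie the read numbers and intervals given above. In Untreated A the deposited count fell 1 short of these reads for 9080 of 9099 transcripts.

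CDS counts were tested with edgeR 4.0.16 (quasi-likelihood, library size equal to the depth, Benjamini-Hochberg adjustment over 5684 transcripts) in R 4.3.3, with TMM, DESeq2 1.42.0 and other filters as alternatives. The edgeR and interval scripts were tested on simulated data. RRTS intervals are exact Poisson intervals (scipy 1.17.1) and limits of zero counts correspond to 3 reads. Annotation and sequence came from hg38 with GENCODE 44, in which transcript versions differ in part from those used by the authors, and copies were found with blastn 2.17.0. The study calls libraries of a treatment biological replicates, but the labels name no separate cultures, so p-values measure only the spread between these libraries.

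The 10 genes, the list of 70 and the tests were chosen with earlier results of these data known. Named were all 10 genes, every other listed gene called for its CDS change, the 5 highest and 3 lowest of them in RRTS (ties at 0 ordered by reads expected at CDS density), the 5 transcripts most like ATG12 and the 2 next to it on each side with at least 50 readthrough reads. There was none above. GABARAPL1 and MAP1LC3A were compared with GABARAPL2, and ATG16L1, ATG4B and ATG4C were named, after their values were seen.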

Additional observations from a re-analysis of the deposited data

How the results depend on the processing

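The RRTS of ATG12 in G418 A was 6.67% when the whole 3′UTR took the place of the region up to the 3′TC, since its 3′UTR is long. The same change took GABARAPL2 from 60.2% to 3.54%, ULK1 from 74.2% to 16.1% and ATG101 from 42.2% to 27.4%. With the CDS density raised for shared windows, an alternative chosen after seeing the data, ATG12 scored 132%. The number of the 8 genes with the G418 interval above both untreated intervals stayed at 3 with 99% intervals, with no minimum of reads, with MANE Select stop codons alone (chosen after seeing the data) and without either untreated library (3 to 3). It was 1 of the 3 genes that reach a mean of 500 CDS reads, and 2 with regions of at least 60 nt, where GABARAPL2 no longer enters. Of the 40 others, 8 became 5 with 99% intervals and 3 at a mean of 500 CDS reads, and leaving out an untreated library gave 8 (without Untreated B) to 12 (without Untreated A). The pooled ratio of G418 over untreated rests on 1 and 14 untreated reads. It was 11.9 without Untreated A, 111 without Untreated B and 24.8 with MANE Select stop codons alone (chosen after seeing the data). The number of transcripts called higher in their CDS was 173, and 110 with TMM, 108 with DESeq2 size factors, 56 at a mean of 500 reads and 10 with DESeq2, which called 17 lower in place of 33. The 2 autophagy genes called higher became 0 with TMM, DESeq2 size factors and DESeq2, and 1 at a mean of 500 reads. The cause was not tested.

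The CDS change of ATG12 was 0.13 against Untreated B alone, and that of ULK1 −0.05, each of the opposite sign to its value over the mean. With a single library on each side these are values with no test. No paired analysis was possible because the groups share only 1 replicate letter. RRTS over the full CDS was not run, since reads of the CDS ends were not used here. With 1 G418 library the variation between treated cultures is unknown.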

Other observations

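Reads in the listed 5′UTR, a readout that played no part in choosing the genes, were many on ATG5 and ATG101. ATG5 had 95, 167 and 160 5′UTR reads in Untreated A, Untreated B and G418 A, equal to 66.0%, 93.3% and 74.8% of its CDS reads. The median over 5663 transcripts was 0.545%, 0.700% and 0.518%, and ATG5 exceeded 99.5%, 99.8% and 99.9% of them. The listed ATG5 transcript is not the MANE Select one. Whether its listed 5′UTR holds coding sequence of the reference isoform was not tested. The ATG5 values are therefore not shown to come from ribosomes outside coding sequence. ATG101 had 13, 53 and 49 5′UTR reads, or 11.3%, 37.6% and 27.8% of its CDS reads, above 92.5%, 98.98% and 98.7% of the transcripts. For ATG101 the share in G418 A lay between those of the untreated libraries. ULK1 had 9.52%, 4.27% and 2.43%, above 91.0%, 79.9% and 73.8% of the transcripts, so that in Untreated A it was close to ATG101. ATG12, ATG7 and SQSTM1 had at most 1 such read in any library, with listed 5′UTRs of 7, 19 and 10 counted nucleotides.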
